A study of Mus musculus with 2 samples.

Results

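The 8 genes described here are read, in the kidney, as marks of an injured or repairing tubule: Havcr1, Lcn2, Vcam1, Sox9, Clu, Cdh6, Prom1 and Wfdc2. They were listed by symbol, with earlier results of these data known, so the set is not independent of the data. All 8 were found among the 31053 genes of the gene list that both libraries share. Their unique molecular identifiers (UMIs, the tag that counts 1 captured RNA molecule) were summed over the cells of each library and over cell classes rebuilt from marker genes.

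The study sequenced single cells of the kidney cortex of mice aged 12 weeks, with 1 library from wild-type mice and 1 library from podocyte-specific I-PpoI mice. The I-PpoI protein is a homing endonuclease, an enzyme that cuts DNA at a long recognition site and so makes double-strand breaks; in the labels its expression is placed in podocytes, the filtering cells of the glomerulus. Both groups share the age, the tissue, the enzymatic dissociation with collagenase, pronase and DNase, and the droplet kit that reads the 3′ end of transcripts. The promoter or Cre driver behind the I-PpoI expression, the sex and number of the mice and whether mice were pooled are not given in the sources used here.

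A tubule cell that is damaged loses its transporters and brush border, and the cells that survive can flatten, spread, divide and rebuild the epithelium. Havcr1 (kidney injury molecule 1) and Lcn2 (neutrophil gelatinase-associated lipocalin) are used as injury biomarkers, the first made by proximal tubule cells and the second mostly by distal segments and by neutrophils. Sox9, Cdh6, Prom1 and Clu are linked to regrowth or survival of the epithelium, Vcam1 to proximal tubule cells that fail to complete repair, and Wfdc2 (HE4) is a secreted protease inhibitor-like protein of the distal nephron.

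The filtered data held 3949 I-PpoI and 3094 wild-type cells, with 35037164 and 19595441 UMIs, and a median of 6647 and 3486.5 UMIs per cell. The median share of mitochondrial UMIs was 3.31% for I-PpoI and 14.3% for wild-type. Of the barcodes of kept cells, 3 were present in both libraries. The endonuclease matched 0 features, so its expression could not be checked. No cluster was named podocyte-like by the marker rule, so the cell type that the label targets forms no class here. Because there was 1 library per group, no difference below has a replicate check and no p-value is given. Intervals are exact, at 95%, and cover counting error only. Levels are UMIs of a gene per 1000000 UMIs of the same cells (CPM), and fewer cells of a type and less RNA per cell cannot be told apart in the sums over a whole library.

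Over all kept cells, every member had a higher level in the I-PpoI library than in wild-type, and the size of the difference ran from 1.39-fold for Prom1 to at least 294-fold for Havcr1. Havcr1 had 1576 UMIs in I-PpoI cells (45.0 CPM) and 0 in wild-type cells, and the bound sets the wild-type sum at a floor of 3 UMIs. Sox9 had 1368 and 12 UMIs (39.0 and 0.612 CPM), a ratio of 63.8 (interval 36.4 to 124). Lcn2 had 27618 and 655 UMIs (788 and 33.4 CPM), a ratio of 23.6 (21.8 to 25.5). These 3 genes were close to unseen in the wild-type library outside a few cell classes. Clu, which codes for the chaperone clusterin, had 29993 and 2418 UMIs (856 and 123 CPM), a ratio of 6.94 (6.66 to 7.23). Vcam1, an adhesion molecule, had 7488 and 790 UMIs (214 and 40.3 CPM), a ratio of 5.30 (4.93 to 5.71). Cdh6, which codes for K-cadherin, had 1356 and 290 UMIs (38.7 and 14.8 CPM), a ratio of 2.62 (2.30 to 2.98). Both libraries thus held these genes in plain amounts, unlike Havcr1 and Sox9. Wfdc2 had 23795 and 6485 UMIs (679 and 331 CPM), a ratio of 2.05 (1.996 to 2.11). Prom1, which codes for the membrane protein prominin-1 (CD133), had 1674 and 675 UMIs (47.8 and 34.4 CPM), a ratio of 1.39 (1.27 to 1.52). At a threshold of 2-fold, 7 of the 8 members were higher in the I-PpoI library, all but Prom1, against 19.1% of the 16676 genes with at least 10 UMIs in the libraries together. The call for Wfdc2 lay at the threshold: its log2 ratio was 1.04, and it was 0.81 without mitochondrially encoded UMIs, 0.80 with each cell weighted equally and 0.94 with no doublets left out. With I-PpoI levels set to the wild-type class composition, an alternative chosen after seeing the data, Prom1 passed with a log2 ratio of 1.44 (0.47 as reported), and Sox9 stood at 7.30 (5.99 as reported). The median log2 ratio of the members was 2.60 and that of all those genes was 0.04. Here and in each class below, a member near 0 in wild-type cells entered the count past 2-fold only through its I-PpoI UMIs. Such counts are therefore a description.

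Most UMIs of each member came from a few cell classes. In the I-PpoI library, 96.7% of the Havcr1 UMIs and 65.3% of the Sox9 UMIs lay in proximal tubule-like cells. Of the Lcn2 UMIs, 61.6% lay in the class named connecting tubule and principal-like and 28.4% in thick ascending limb-like cells, and Clu had 82.8% of its UMIs in the former. Wfdc2 was divided between the same pair of classes, 51.6% and 34.7%. The connecting tubule and principal-like class also led in the wild-type library, with 76.5% of the Lcn2 UMIs, 67.8% of the Clu UMIs and 45.2% of the Wfdc2 UMIs. This class includes cluster 11, whose I-PpoI cells went against the name, as described below. At clustering resolutions of 0.5 and 2, 91 of its 107 I-PpoI cells became thick ascending limb-like, while its 63 wild-type cells fell elsewhere. The split between these 2 classes therefore depends on the setting, and the class sets unlike cells of the libraries side by side. Vcam1 was spread over macrophage-like cells (44.9%) and proximal tubule-like cells (31.2%), whereas 85.7% of its wild-type UMIs lay in endothelial-like cells. Cdh6 lay in proximal tubule-like cells (43.7%) and in a cluster named parietal epithelial-like (40.6%), and in the wild-type library 46.2% of it lay in that cluster and 30.0% in thick ascending limb-like cells. Prom1 was the most evenly spread, with 36.7%, 28.8% and 25.6% of its I-PpoI UMIs in the connecting tubule and principal-like, proximal tubule-like and thick ascending limb-like classes.

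**Figure D1:**
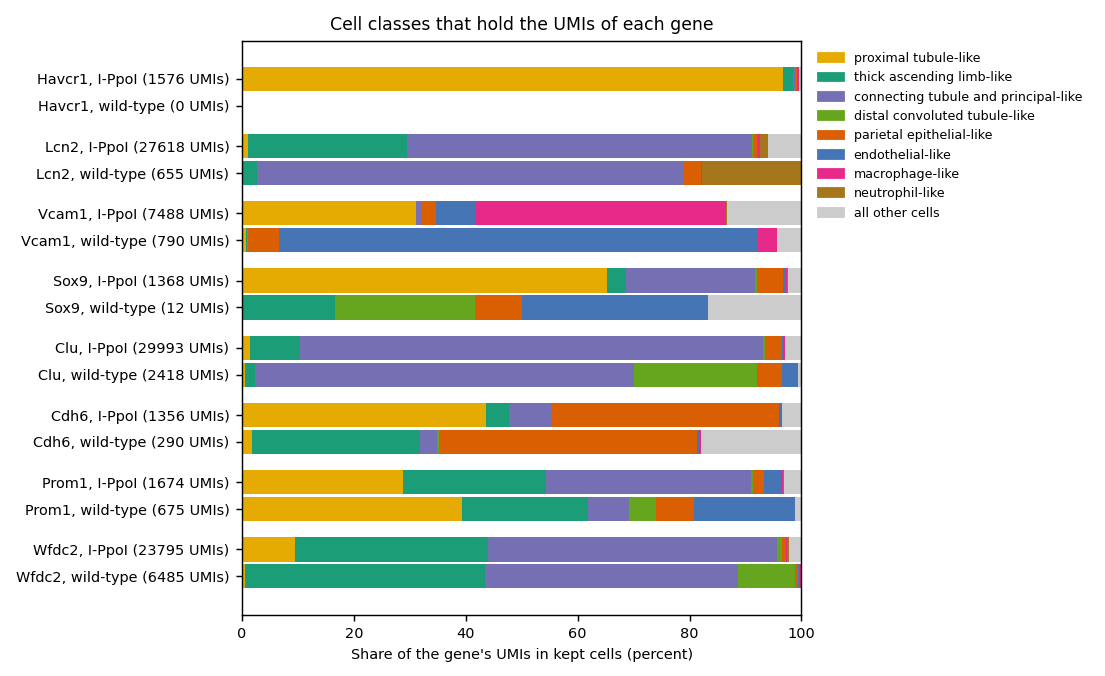
Share of each member's UMIs (percent) that came from each cell class, in the I-PpoI and in the wild-type library. Havcr1 lay almost entirely in proximal tubule-like cells (96.7% of I-PpoI UMIs), and Vcam1 lay mostly in endothelial-like cells in wild-type (85.7%) and in macrophage-like and proximal tubule-like cells in I-PpoI (44.9% and 31.2%).

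Proximal tubule-like cells, which reabsorb most of the filtered load, numbered 439 in the I-PpoI and 1347 in the wild-type library. The summed level of the 22 proximal tubule markers in them was 12335 CPM in I-PpoI and 57549 CPM in wild-type cells, with all 22 detected in both. A single androgen-regulated marker, Kap, held 1553 and 27350 CPM of these sums, and the sex of the mice is not given. The libraries filled different clusters of the class: 379 of the I-PpoI cells lay in cluster 4, with 1 wild-type cell, and most wild-type cells lay in clusters 21, 13, 25 and 27, with 496, 440, 230 and 136 cells. Counts past 2-fold and the levels of some genes are therefore given with cluster 4 and then without it. Other results for the class, the thinned shares among them, are given only with it. All 379 cells stayed proximal tubule-like at clustering resolutions of 0.5 and 2, but by the marker score of each cell 121 of them were proximal tubule, 146 parietal epithelial and 25 thin limb. With classes set by that score, 8 of 8 members still passed 2-fold in the proximal tubule class, which then held 164 I-PpoI cells.

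**Figure D2:**
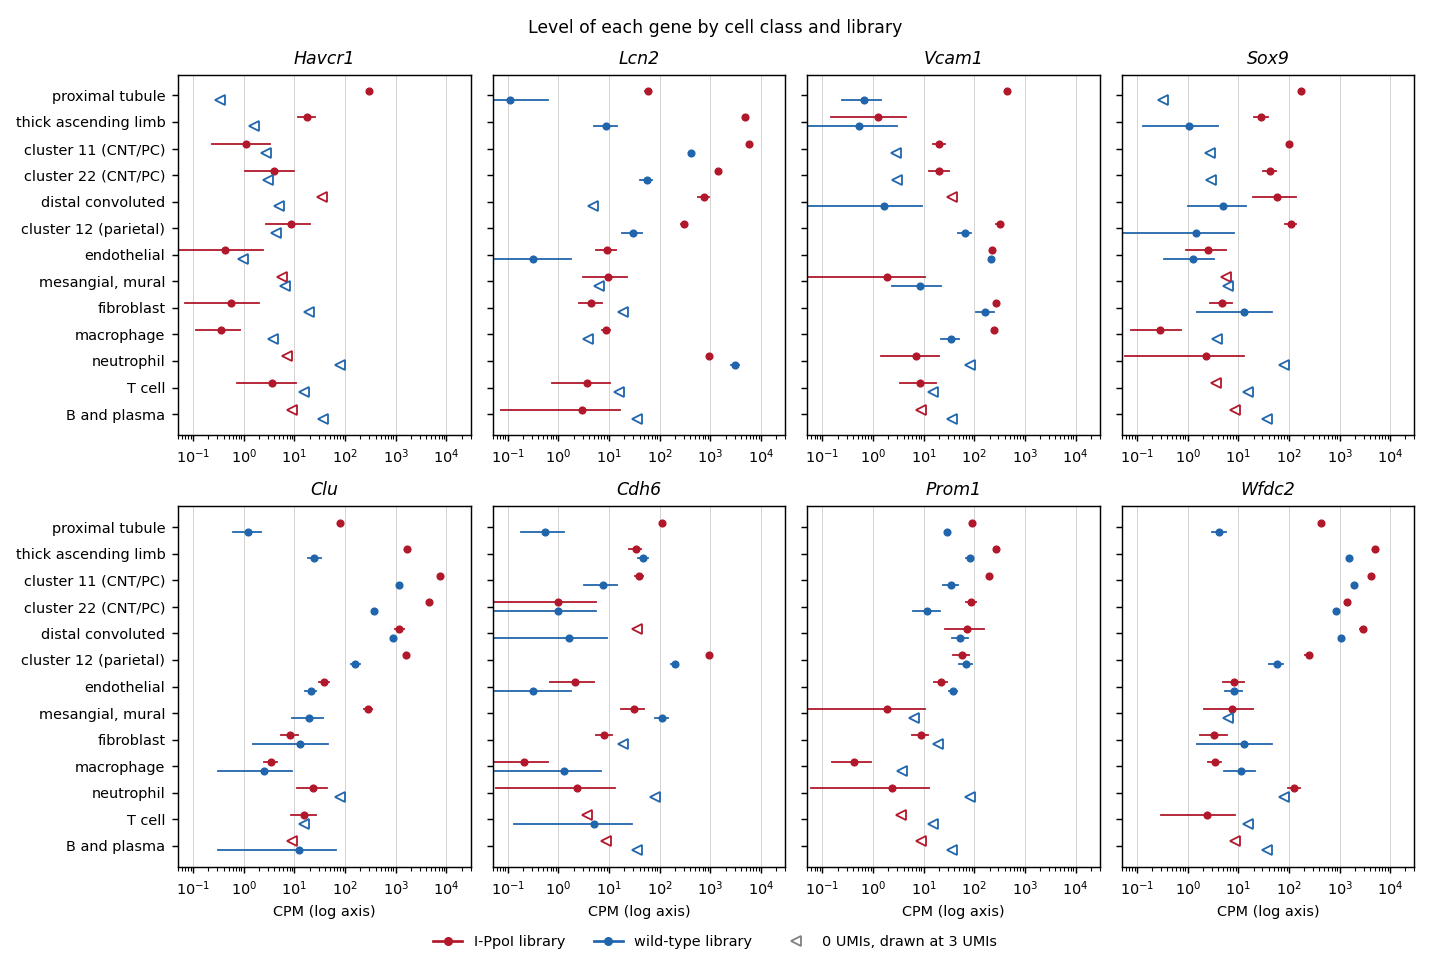
Level of each member (CPM, log axis) in the cell classes and clusters named in the panels, for the I-PpoI and the wild-type library; points are sums over cells, bars are exact 95% Poisson intervals, and open triangles stand for 0 UMIs, drawn at 3 UMIs (CNT/PC is connecting tubule and principal). In proximal tubule-like cells Havcr1 stood at 290 CPM in I-PpoI and at 0 in wild-type cells, and Lcn2, Clu and Wfdc2 stood above 1000 CPM in the I-PpoI cells of thick ascending limb-like cells and of cluster 11.

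Havcr1 codes for a surface receptor for phosphatidylserine with which injured proximal tubule cells take up dead cells. The gene lies on chromosome 11 (GRCm38, 46735080 to 46779578, plus strand). It had 1524 UMIs in I-PpoI proximal tubule-like cells (290 CPM, interval 276 to 305) and 0 in wild-type cells, which is at least 874-fold higher. Its next level in the I-PpoI library, in thick ascending limb-like cells, was 17.4 CPM from 28 UMIs, and it was at 8.51 CPM or less in the other classes; the intervals of neighbours below the proximal class overlapped. In the wild-type library Havcr1 was at 0 UMIs in every class, proximal tubule-like cells included. Without cluster 4 the class held 60 I-PpoI and 1346 wild-type cells, and Havcr1 had 46 and 0 UMIs (187 CPM, at least 565-fold higher). All 46 came from the 10 I-PpoI cells of cluster 26. Within cluster 4, 142 of 379 cells held a Havcr1 UMI, the highest single cell held 106 UMIs, and the 10 cells with the most UMIs held 48.0% of the total. Its UMIs were thus concentrated in few cells.

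Of the RefSeq table of promoter windows, which gives 250 bases before each gene's start in GRCm38.p6, 5 of the 8 members had an entry (Havcr1, Lcn2, Cdh6, Prom1 and Wfdc2). Some genes have several starts there, and the Havcr1 window used lies at a start inside the span given above. The exon-free stretch of that window is the 88 bases farthest from the start. Here the exon-free upstream bases of Havcr1, the member at 0 UMIs in the kept wild-type cells, and of Cdh6, a member found in both, are shown as the promoter-side sequence next to those measurements. The Havcr1 stretch lies at chr11:46739973-46740060 on the plus strand and the Cdh6 stretch at chr15:13173676-13173925 on the minus strand, both written 5′ to 3′ in lower case, with no part marked.
Havcr1: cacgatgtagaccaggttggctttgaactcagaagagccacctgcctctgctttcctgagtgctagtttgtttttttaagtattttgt
Cdh6: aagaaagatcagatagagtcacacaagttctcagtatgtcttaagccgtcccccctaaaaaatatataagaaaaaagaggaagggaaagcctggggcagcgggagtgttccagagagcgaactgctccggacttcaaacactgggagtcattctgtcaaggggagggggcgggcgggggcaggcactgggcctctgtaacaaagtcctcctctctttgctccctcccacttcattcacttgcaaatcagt
Motifs were searched on both strands in the 250 upstream bases of those 5 members, in the first listed window of each. Havcr1 has 3 windows listed, and Prom1 and Wfdc2 have 2 each. The windows used for Lcn2, Prom1 and Wfdc2 overlap annotated exons and are not printed. The AP-1 motif TGANTCA matched once, in the Prom1 window, from -88 to -82 counted from the start, and 6.75% of the 32851 windows in the table hold it. The STAT motif TTCNNNGAA, the SOX motif AACAAT and the NF-kB motif matched 0 of the 5 windows, and 7.02%, 9.42% and 3.9% of all windows hold them. A match or its lack describes only these letters in this window.

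Vcam1 lies on chromosome 3 (116109949 to 116129688, minus strand). Its protein binds the integrin of Itga4 and Itgb1 on leukocytes and is otherwise known from activated endothelium. Within the class it had 2333 UMIs for I-PpoI and 6 for wild-type (444 and 0.663 CPM), a ratio of 669 (307 to 1826). Its level in I-PpoI proximal tubule-like cells was above that of I-PpoI endothelial-like cells (226 CPM) and macrophage-like cells (240 CPM), with intervals that did not overlap. That order holds for the classes as a whole. Cluster 6 of the macrophage-like class, with 258 I-PpoI cells, had a higher Vcam1 level than the proximal tubule-like cells, as given below. In cluster 4, 203 of 379 cells held a UMI and the 10 top cells held 29.8% of the total, so Vcam1 was shared by more cells than Havcr1. Outside cluster 4 only 1 UMI remained in I-PpoI proximal tubule-like cells, against 6 in wild-type cells, too few to compare. The Vcam1 locus overlaps the antisense gene Gm43109, and whether the counting used strand is not given in the sources used here.

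Sox9 is a transcription factor that is turned on in proximal tubule cells as they re-enter the cell cycle. The gene lies on chromosome 11 (112782224 to 112787760, plus strand). It had 893 and 0 UMIs in proximal tubule-like cells (170 CPM in I-PpoI, at least 512-fold higher), and 149 of the 379 cells of cluster 4 held a UMI. Its levels in the I-PpoI library fell in the order proximal tubule-like, parietal epithelial-like (111 CPM) and connecting tubule and principal-like (85.6 CPM), and the latter pair had overlapping intervals. In the wild-type library no class had more than 4 Sox9 UMIs.

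Cdh6 marks early nephron epithelium in development and proximal tubule cells that renew. It lies on chromosome 15 (13028701 to 13173675, minus strand). Within the class it had 592 and 5 UMIs (113 and 0.553 CPM), a ratio of 204 (86.8 to 630), and 127 of the cells of cluster 4 held a UMI. Prom1, on chromosome 5 (43993620 to 44102032, minus strand), was the member with the smallest ratio in this class. It had 482 and 266 UMIs (91.7 and 29.4 CPM), a ratio of 3.12 (2.68 to 3.64), and was thus the member with the most wild-type UMIs in the class. The Prom1 locus overlaps Gm42716 on the same strand and Gm16401 on the other.

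The secreted proteins Wfdc2, Lcn2 and Clu were also higher in I-PpoI proximal tubule-like cells. Wfdc2 had 2233 and 38 UMIs (425 and 4.20 CPM), a ratio of 101 (73.5 to 143), and 258 of the 379 cells of cluster 4 held a UMI. Clu had 412 and 11 UMIs (78.4 and 1.22 CPM), a ratio of 64.5 (35.7 to 130). Lcn2 had 306 and 1 UMIs (58.2 and 0.111 CPM), a ratio of 527 whose interval ran from 93.8 to 20873. All 8 members passed 2-fold in this class, against 28.1% of the genes with at least 10 UMIs in the libraries together; a member near 0 in wild-type cells entered the count only through its I-PpoI UMIs, so the count is a description. The median log2 ratio was 7.997 for the members and 0.44 for all genes measured. Without cluster 4, 5 members still had 10 UMIs and all 5 passed 2-fold, against 17.5% of genes: Wfdc2 had 109 and 38 UMIs (ratio 106, 72.5 to 157), Prom1 22 and 266 (ratio 3.05, 1.88 to 4.71), Clu 18 and 10 (ratio 66.3, 29.0 to 161), and Cdh6 6 and 5 (ratio 44.2, 11.2 to 183), beside Havcr1. In these 60 cells the median was 1249.5 UMIs per cell.

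Markers of other cells moved with the proximal tubule-like result. The summed level of the 11 macrophage markers in the class was 1874 CPM in I-PpoI (10 detected, Cd163 at 0) and 142 CPM in wild-type cells (8 detected, with Adgre1, Ms4a7 and Cd163 at 0). The 10 podocyte markers summed to 52.7 and 10.9 CPM. The 10 parietal epithelial markers summed to 1181 and 86.3 CPM. Macrophage-like I-PpoI cells themselves had a Havcr1 level of 0.357 CPM and a Sox9 level of 0.285 CPM. The proximal tubule-like levels were 290 and 170 CPM. Other members stood higher in other I-PpoI classes. Clu (1570 CPM) and Cdh6 (937 CPM) did so in parietal epithelial-like cells, beside 78.4 and 113 CPM in the proximal class. Lcn2 (4870 CPM), Wfdc2 (5113 CPM) and Prom1 (265 CPM) did so in thick ascending limb-like cells, beside 58.2, 425 and 91.7 CPM. Among classes, Havcr1, Sox9 and Vcam1 were highest in the proximal one. The part that RNA of macrophages or other cells has in any member's level, Vcam1 included, was not tested.

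Shares of cells with a UMI depend on depth, so each cell was thinned to 1000 UMIs. The comparison then held 372 I-PpoI and 1095 wild-type proximal tubule-like cells, with 67 and 252 shallower cells left out. Wfdc2 was detected in 32.8% of I-PpoI cells (28.0% to 37.8%, 62.9% before thinning) and in 0.365% of wild-type cells (2.45% before thinning). Vcam1 was detected in 22.8% (18.7% to 27.5%, 46.5% before thinning) and in 0 of 1095, which, at 3 counts of the total, allows a share of cells with a UMI at this depth of up to 0.274%. Havcr1 was detected in 13.2% (9.91% to 17.04%, 33.5% before thinning) and in 0 of 1095. The order by share thus put Wfdc2 and Vcam1 ahead of Havcr1. Sox9 followed with 9.95% (7.10% to 13.5%, 34.6% before thinning) and 0 of 1095. Prom1 was detected in 6.99% and 2.74% (37.6% and 12.2% before thinning), Cdh6 in 5.11% and 0 (29.6% and 0.223%), Clu in 4.84% and 0.0913% (22.6% and 0.817%), and Lcn2 in 3.76% and 0 (14.8% and 0.0742%). As a rough measure of free RNA, shares were read in the 253 I-PpoI T cell-like cells at this depth. RNA made by the T cells was not told apart from free RNA. These cells had Havcr1 in 0.395%, Vcam1 in 0.395%, Lcn2 and Wfdc2 in 0.791%, Clu in 1.58% and Sox9, Cdh6 and Prom1 in 0. Their median depth was 2877 UMIs per cell, against 4844 in I-PpoI proximal tubule-like cells.

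**Figure D3:**
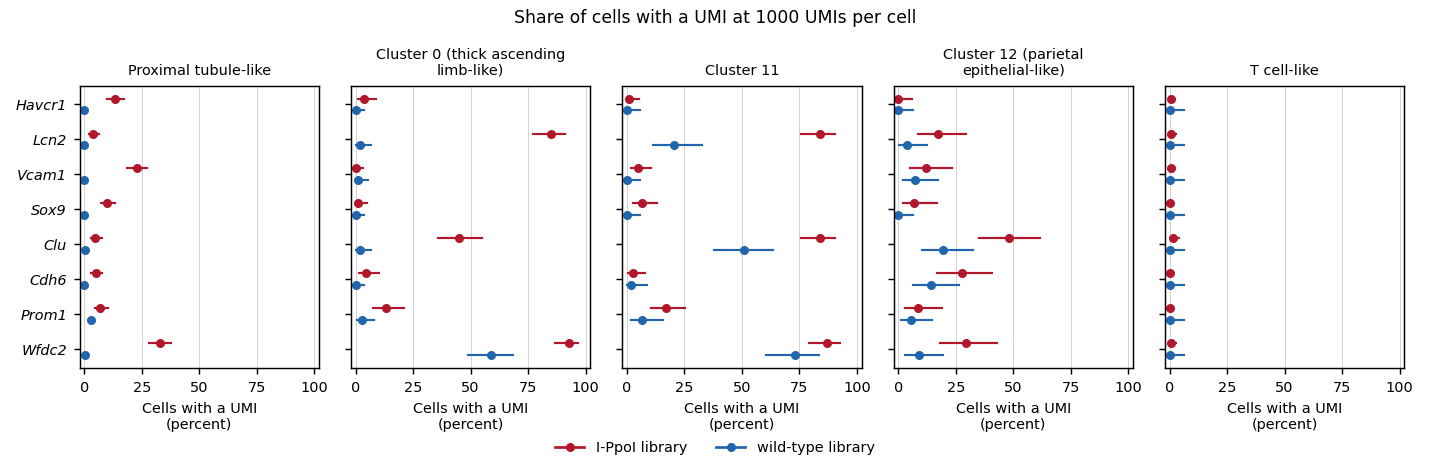
Share of cells (percent) with at least 1 UMI of each member after thinning every cell to 1000 UMIs, by population and library; bars are exact 95% Clopper-Pearson intervals. In proximal tubule-like cells Wfdc2 (32.8%) and Vcam1 (22.8%) were detected in more I-PpoI cells than Havcr1 (13.2%), and wild-type cells stayed at 2.74% or less.

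Detection of several members in a cell was read at the same depth, where a missing UMI does not show that a gene was absent. At 1000 UMIs, 98 of 372 I-PpoI proximal tubule-like cells (26.3%) held 2 or more members and 33 (8.87%) held 3 or more, and in wild-type cells 0 of 1095 held 2. Among the 335 cells of cluster 4 at this depth, Cdh6 was detected in 9 of 37 cells with Sox9 (24.3%) and in 3.36% of cells without Sox9. Vcam1 was detected in 43.2% of cells with Sox9 and 23.2% of cells without it. In these counts Cdh6 and Vcam1 were detected more often in cells with a Sox9 UMI, a description that rests on 37 such cells. Prom1 was detected in 0 of 47 cells with Havcr1 and in 8.33% of cells without it, and Vcam1 in 34.0% and 24.0% of them. The UMIs of 20 genes of the mature proximal tubule (transporters and metabolic enzymes) had a median of 7 per 1000 in cluster 4. The median was 4 in cells with Vcam1 against 8 without, 4 with Cdh6 against 7 without, 5 with Sox9 against 7 without, 6 with Havcr1 against 7 without and 7 both with and without Wfdc2. Cells with Prom1 went the other way, with 10 against 7. Wild-type proximal tubule-like cells had a median of 43 per 1000. Kap is among these 20 genes and held 27350 of their summed 52530 CPM in the wild-type class. In the I-PpoI class it held 1553 of 10911.5 CPM.

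**Figure D4:**
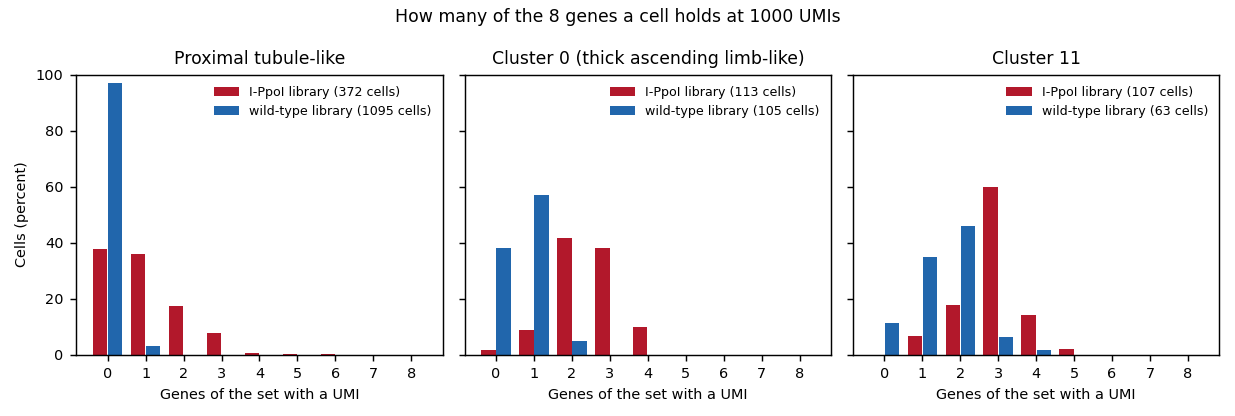
Share of cells (percent) by how many of the 8 members were detected after thinning to 1000 UMIs, by population and library. In proximal tubule-like cells 2 or more were held by 26.3% of cells in I-PpoI and by 0 of 1095 in wild-type, and in cluster 11 the shares with 3 or more were 75.7% (I-PpoI) and 7.94% (wild-type).

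In the thick ascending limb, the segment that dilutes the urine, Lcn2, Clu, Wfdc2 and Prom1 were higher in the I-PpoI library. Lcn2 codes for a siderophore-binding lipocalin and lies on chromosome 2 (32384633 to 32388252, minus strand). It had 7856 UMIs in 128 I-PpoI cells and 16 in 246 wild-type cells (4870 and 8.64 CPM), a ratio of 564 (347 to 987). Clu, on chromosome 14 (65968483 to 65981547, plus strand), had 2693 and 46 UMIs (1669 and 24.8 CPM), a ratio of 67.2 (50.3 to 92.1). Wfdc2, on chromosome 2 (164562413 to 164568510, plus strand), had 8248 and 2782 UMIs (5113 and 1502 CPM), a ratio of 3.40 (3.26 to 3.56). The difference in Wfdc2 was therefore one of degree, while wild-type cells had little Lcn2. Prom1 had 428 and 152 UMIs (265 and 82.0 CPM), a ratio of 3.23 (2.68 to 3.92). Sox9 had 46 and 2 UMIs, a ratio of 26.4 (6.91 to 225), and Havcr1 had 28 and 0 UMIs, at least 10.7-fold higher. Cdh6 did not follow, with 54 and 87 UMIs (33.5 and 47.0 CPM) and a ratio of 0.713 whose interval (0.498 to 1.012) included 1. Of the 7 members with 10 UMIs, 6 passed 2-fold higher, against 25.4% of genes. Havcr1 and Sox9 reached 10 UMIs only through the I-PpoI library, so the count is a description.

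The wild-type cells of this class lay in clusters 0 and 28, with 173 and 73 cells, and all 128 I-PpoI cells lay in cluster 0. Within cluster 0 the ratios were 512 for Lcn2 (7856 and 4 UMIs, 200 to 1881), 87.8 for Clu (2693 and 8), 4.47 for Prom1 (428 and 25), 3.35 for Wfdc2 (8248 and 643) and 1.28 for Cdh6 (54 and 11, interval 0.662 to 2.72). Here 6 of 7 members passed 2-fold, beside 43.7% of all genes in the cluster. Median depth in cluster 0 was 5880 UMIs for I-PpoI and 1201 for wild-type, and the median mitochondrial share was 15.6% and 36.5%. Of the 15 dissociation and heat genes 14 were at least 2-fold higher in the I-PpoI cells of the class and of cluster 0. The shares of all genes were 25.4% and 43.7%, and the median log2 ratios of the list were 3.65 and 4.26. The part of depth, mitochondrial share and dissociation in the result was not tested. At 1000 UMIs per cell, Lcn2 was detected in 85.0% of 113 I-PpoI cells (77.0% to 91.0%, 90.6% before thinning) and in 1.90% of 105 wild-type cells (2.31% before thinning). Clu was detected in 45.1% and 1.90% (71.1% and 3.47%), Wfdc2 in 92.9% and 59.0% (99.2% and 67.6%), and Prom1 in 13.3% and 2.86% (57.0% and 9.83%). Lcn2 was spread over 116 of the 128 cells, and its 10 top cells held 43.8% of its UMIs. In this cluster 3 or more members were held by 47.8% of the I-PpoI cells and by 0 of 105 in wild-type.

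Cluster 11 held the most Lcn2 UMIs of any epithelial cluster, in 107 I-PpoI and 63 wild-type cells. The marker rule named it connecting tubule and principal-like, after the segments that take up sodium and water under hormonal control, but the markers of its I-PpoI cells went against that name. The markers of that class summed to 1642 CPM in I-PpoI and 19273 CPM in wild-type cells of the cluster. Slc12a3, the thiazide-sensitive cotransporter of the distal convoluted tubule, had 729 and 17.7 CPM there. The 9 urothelium markers summed to 773 and 59.5 CPM, with all 9 detected on the I-PpoI side and 2 on the wild-type side. At clustering resolutions of 0.5 and 2, 91 of the 107 I-PpoI cells fell in thick ascending limb-like clusters. None of the 63 wild-type cells did: all were in an unnamed cluster at 0.5 and in a connecting tubule and principal-like cluster at 2, so ratios within cluster 11 compare cells that those settings placed apart. By the marker score of each cell, 2 of the 107 I-PpoI cells were thick ascending limb and 33 distal convoluted tubule. Another 29 were thin limb and 27 connecting tubule and principal. With at least 500 genes per cell, 104 of the I-PpoI and all 63 wild-type cells were connecting tubule and principal-like. The cluster is therefore called by its number.

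In cluster 11, Lcn2 had 15579 and 445 UMIs (5865 and 413 CPM), a ratio of 14.2 (12.9 to 15.6). Clu had 20193 and 1257 UMIs (7603 and 1168 CPM), a ratio of 6.51 (6.15 to 6.90). Wfdc2 had 10835 and 2063 UMIs (4079 and 1917 CPM), a ratio of 2.13 (2.03 to 2.23). All 3 secreted proteins were thus plain in wild-type cells of the cluster too, in contrast to Sox9, with 272 and 0 UMIs (102.4 CPM, at least 36.7-fold higher). Prom1 had 525 and 37 UMIs, a ratio of 5.75 (4.12 to 8.26), and Cdh6 had 104 and 8, a ratio of 5.27 (2.58 to 12.5). Vcam1 had 53 and 0 UMIs, at least 7.16-fold higher, but 10 cells held 94.3% of them. Havcr1, with 3 and 0 UMIs, gave no fold. All 7 members with 10 UMIs passed 2-fold, against 14.8% of genes; the cluster was taken up for its Lcn2 UMIs, and Sox9 and Vcam1 entered only through I-PpoI UMIs, so the count is a description. At 1000 UMIs, Lcn2 was detected in 84.1% (I-PpoI) and 20.6% (wild-type) of the cells (94.4% and 47.6% before thinning), Clu in 84.1% and 50.8% (96.3% and 73.0%), and Sox9 in 6.54% and 0 of 63 (53.3% and 0 before thinning). The UMIs of 14 genes of the mature distal nephron had a median of 1 per 1000 (I-PpoI) and 15 per 1000 (wild-type) in this cluster.

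Cluster 22 (46 cells I-PpoI, 56 wild-type) carried intercalated cell markers at 6163 and 8010 CPM, with all 10 detected in both, and was named with the same class by the rule. Lcn2 had 1444 and 56 UMIs there (1411 and 54.9 CPM), a ratio of 25.7 (19.7 to 34.2), and Clu had 4645 and 382 (4538 and 375 CPM), a ratio of 12.1 (10.9 to 13.5). Prom1 had 89 and 12 UMIs (ratio 7.39, 4.02 to 14.8), Sox9 43 and 0 (at least 14.3-fold higher) and Wfdc2 1433 and 868 (ratio 1.64, 1.51 to 1.79). In this cluster 5 of 6 members passed 2-fold, against 14.2% of genes. In the whole class 7 of 7 members passed, against 15% of genes. Cdh6, with 105 and 9 UMIs in the class (log2 ratio 2.73), turned to -0.64 at resolution 2 and -0.61 by marker score, with intervals that included 0. In distal convoluted tubule-like cells (23 I-PpoI and 107 wild-type), Lcn2 had 62 and 0 UMIs (733 CPM, at least 150-fold higher) and Wfdc2 243 and 656 (2871 and 1069 CPM, ratio 2.68, 2.31 to 3.12). Clu had 100 and 531 UMIs (1182 and 866 CPM), a ratio of 1.36 (1.09 to 1.69), so this segment already carried Clu in wild-type cells. Here 2 of 4 members passed, against 11.1% of genes.

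Cluster 12 was named parietal epithelial-like, after the flat cells that line Bowman's capsule, and held 75 I-PpoI and 63 wild-type cells. Its 2 libraries differed in markers: the parietal markers summed to 3506 CPM for I-PpoI and 11278 for wild-type, the thin limb markers to 1388 and 13653, and the mural markers to 6444 and 988. It had the highest Cdh6 level of any class in both libraries, with 550 and 134 UMIs (937 and 196 CPM), a ratio of 4.77 (3.95 to 5.81). In I-PpoI cells 1 cell held 233 of those UMIs and 10 cells held 88.9%. The share of cells with Cdh6 was 27.6% and 14.3% when thinned, but 29.3% and 49.2% before thinning, so no order was read from it. Clu had 922 and 109 UMIs there (ratio 9.84, 8.06 to 12.1), Sox9 65 and 1 (ratio 75.6, 13.1 to 3031), Lcn2 177 and 20 (ratio 10.3, 6.47 to 17.3), Vcam1 185 and 44 (ratio 4.89, 3.503 to 6.96) and Wfdc2 145 and 39 (ratio 4.32, 3.02 to 6.33). Prom1, with 33 and 46 UMIs, had a ratio of 0.834 whose interval (0.517 to 1.33) included 1. Of 7 members 6 passed 2-fold, against 11% of genes. No cluster took this name at resolutions of 0.5 and 2, and by marker score the log2 ratio of Clu in the class was -0.21. At resolution 2, 46 of the 75 I-PpoI and 46 of the 63 wild-type cells fell in a thin limb-like cluster. By the marker score of each cell, 26 I-PpoI and 19 wild-type cells were parietal epithelial, and 12 and 38 were thin limb. The name is therefore uncertain.

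Outside the tubule, the members behaved differently from one another. In endothelial-like cells Vcam1 had 526 and 677 UMIs (226 and 215 CPM), and its ratio was 1.05 (0.934 to 1.18). That ratio joined clusters that differed: 2.86 (2.11 to 3.86) in cluster 3, 5.96 (2.71 to 16.3) in cluster 16 and 0.590 (0.447 to 0.775) in cluster 17, while cluster 23, with 147 wild-type cells and 1 I-PpoI cell, held 415 of the wild-type UMIs (602 CPM). Prom1 was lower in endothelial-like I-PpoI cells, with 51 and 122 UMIs (21.9 and 38.8 CPM), a ratio of 0.564 (0.399 to 0.789). Only 1 of 6 members passed 2-fold higher there, Lcn2 with 21 and 1 UMIs, against 7.3% of genes.

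In macrophage-like cells, with 1588 I-PpoI and 175 wild-type cells, Vcam1 had 3365 and 27 UMIs (240 and 34.1 CPM), a ratio of 7.04 (4.83 to 10.7). Within cluster 7, which held 155 of the wild-type cells, it had 568 and 27 UMIs (153 and 39.8 CPM), a ratio of 3.84 (2.61 to 5.88). The other macrophage-like clusters were nearly all I-PpoI cells, and their Vcam1 levels ran from 21.1 CPM in cluster 8 to 270 in cluster 9 and 579 in cluster 6. In the class 2 of 4 members passed 2-fold higher, Vcam1 and Lcn2, against 11% of genes. Lcn2 had 120 and 0 UMIs (8.56 CPM in I-PpoI), beside 3.63 CPM in I-PpoI T cell-like cells. Wfdc2 was the 1 of 4 that was at least 2-fold lower, against 11.8% of genes, with 48 and 9 UMIs (3.42 and 11.4 CPM), a ratio of 0.301 (0.146 to 0.699), but its log2 ratio turned from -1.73 to 1.60 with at least 500 genes per cell. In fibroblast-like cells Vcam1 had 952 and 26 UMIs (266 and 166 CPM), a ratio of 1.61 (1.09 to 2.47), with 28 wild-type cells behind it, and 2 of 7 members passed against 12.1% of genes, Cdh6 and Prom1, with 29 and 31 UMIs against 0, too shallow in wild-type for a fold. Another 2 of 7 were at least 2-fold lower, against 21.8% of genes: Sox9 with 17 and 2 UMIs and Wfdc2 with 12 and 2, both with an interval that included 1. In mesangial, mural and renin-like cells Clu had 149 and 9 UMIs (283 and 19.2 CPM), a ratio of 14.8 (7.56 to 32.9), the 1 of 2 measured members that passed against 8.22% of genes, and Cdh6 went the other way, with 16 and 51 UMIs (30.4 and 109 CPM) and a ratio of 0.280 (0.149 to 0.498), 1 of 2 lower against 7.69% of genes. Lcn2, a granule protein of neutrophils, had 402 and 116 UMIs in 181 and 12 neutrophil-like cells (939 and 3127 CPM). Its ratio there was 0.300 (0.244 to 0.372). In this class 1 of 3 measured members was at least 2-fold lower, Lcn2, against 13.2% of genes. Wfdc2 was the 1 of 3 that was higher, against 32.2%. In fibroblast-like, T cell-like and B and plasma-like cells Lcn2 had 16, 3 and 1 I-PpoI UMIs against 0, too few to compare.

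Other genes of injury and repair were read from lists, in proximal tubule-like cells and in cluster 11. In the proximal class 28.1% of all genes were at least 2-fold higher in I-PpoI, which stands beside each count of higher genes there. Here and in cluster 11, a list gene near 0 in wild-type cells entered a count only through its I-PpoI UMIs. Of 14 measured genes of acute tubular injury, 13 were at least 2-fold higher in I-PpoI proximal tubule-like cells. Their median log2 ratio was 7.24, against 0.44 for all genes. S100a6, a calcium-binding protein, had 10190 and 10 UMIs (ratio 1754, 953 to 3659), the stress transcription factor Atf3 1238 and 2 (ratio 1066, 294 to 8809) and the actin-binding Tmsb10 4530 and 17 (ratio 459, 286 to 788). Of 13 dedifferentiation and progenitor genes 9 were higher, with a median of 4.72, among them the intermediate filament gene Vim with 673 and 5 UMIs (ratio 232), Runx1 with 215 and 0 (at least 123-fold higher) and Cd44, a hyaluronan receptor, with 209 and 0 (at least 120-fold higher). Itgb6 had 361 and 876 UMIs, a ratio of 0.709. All 15 genes of unresolved repair were higher, with a median of 5.31 (4.09 with genes at 0 in 1 library set to their bound), including the chemokine genes Cxcl1 with 913 and 2 UMIs (ratio 786), Ccl2 with 609 and 1 (ratio 1048) and Cxcl2 with 533 and 0 (at least 306-fold higher). Against these, 13 of 20 mature proximal tubule genes were at least 2-fold lower, with a median of -1.64, beside 6.92% of all genes. Kap, an androgen-regulated proximal tubule gene, had 8159 and 247403 UMIs (ratio 0.0568), Gatm, an enzyme of creatine synthesis, 1287 and 15358 (ratio 0.144) and Slc5a2, the glucose cotransporter SGLT2, 518 and 4529 (ratio 0.197). Of 10 measured mature distal genes, which this class should lack, 7 were lower and 1 was higher. Without cluster 4, 17.5% of all genes were at least 2-fold higher and 8.32% lower. The injury, dedifferentiation and unresolved repair lists then had 7 of 9, 3 of 8 and 4 of 8 genes higher. The mature list had 5 of 20 lower. Genes that respond to dissociation and heat were also higher, 12 of 15 with a median of 4.95. Hspb1 (ratio 191), Egr1 (146) and Fosb (135) led, while Dnaja1 (0.621) and Hsp90aa1 (0.936) were lower. Without cluster 4, 9 of the 15 were higher, with a median of 1.13 (1.32 with genes at 0 in 1 library set to their bound). The part that dissociation has in the members' levels was not tested.

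In cluster 11 the same lists gave smaller ratios. Of 14 injury genes 10 were higher, beside 14.8% of all genes. Their median was 1.82, against 0.04 for all genes. Krt19, a keratin of simple epithelia, had 1400 and 6 UMIs (ratio 94.6, 43.3 to 258), Tmsb10 2748 and 63 (ratio 17.7) and Spp1, the secreted phosphoprotein osteopontin, 55003 and 1672 (ratio 13.3). Of 12 dedifferentiation genes 8 were higher and 1 was lower, with a median of 1.86: Runx1 had 179 and 1 UMIs (ratio 72.5, 12.9 to 2881), Foxc1 61 and 1 (ratio 24.7, 4.27 to 992) and Cd44 80 and 0 (at least 10.8-fold higher), while the renal developmental factor Pax2 had 150 and 238 (ratio 0.255) and Notch2 75 and 55 (ratio 0.553). Of 12 unresolved repair genes 8 were higher, led by the protease gene Adamts1 with 481 and 3 UMIs (ratio 65.0, 22.1 to 316) and Dcdc2a with 694 and 9 (ratio 31.3), and Sema5a had a ratio of 0.657. The mature distal genes went both ways, 3 higher and 5 lower of 12, beside 14.8% and 8.75% of all genes: Slc12a3 (ratio 41.3), Umod (3.51) and the magnesium channel gene Trpm6 (3.24) were higher, and the water channel genes Aqp2 (0.0412) and Aqp3 (0.0606) and Hsd11b2 (0.140), which protects the mineralocorticoid receptor, were lower. Of 15 dissociation and heat genes 7 were higher, among them Hspb1 (5.79), Fosb (4.82) and Ier3 (4.71).

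**Figure D5:**
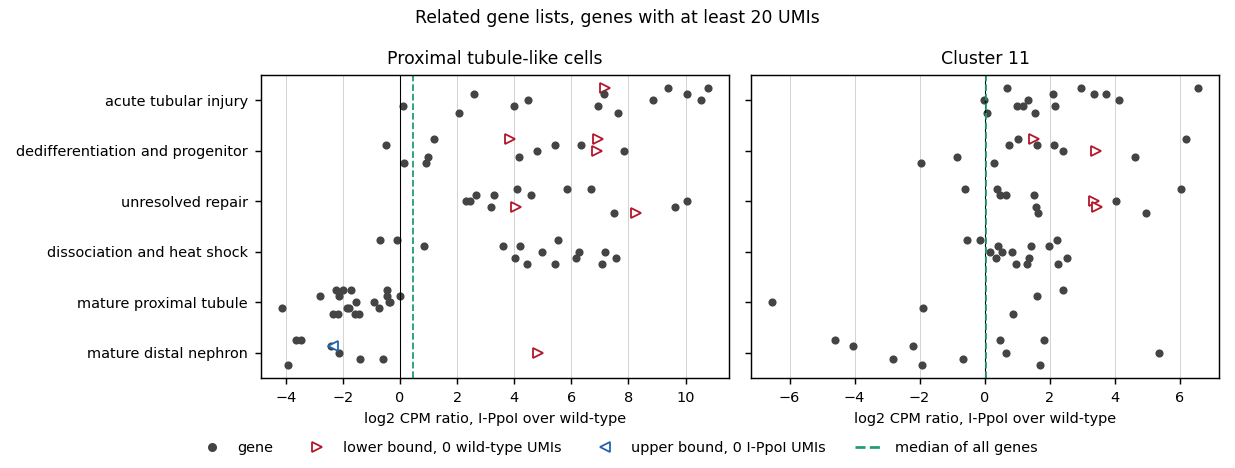
Log2 CPM ratio (I-PpoI over wild-type) of the genes of each related list, in proximal tubule-like cells and cluster 11, 1 point per gene with at least 20 UMIs; triangles are bounds for genes at 0 in 1 library and the dashed line is the median of all genes. The list medians over measured genes in proximal tubule-like cells were 7.24 for acute tubular injury genes and -1.64 for mature proximal tubule genes, against 0.44 for all genes.

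The known partners of the members, over all kept cells, went both ways. Itga4, which with Itgb1 forms the leukocyte receptor of Vcam1, had 1285 and 167 UMIs (ratio 4.30, 3.66 to 5.09), and Itgb1 had 15428 and 5557 (ratio 1.55). Within macrophage-like cells the ratio of Itga4 was 0.971 (0.724 to 1.33). Of the Lcn2 receptors, Slc22a17 had 234 and 272 UMIs (ratio 0.481, 0.402 to 0.575) and Lrp2 (megalin), the endocytic receptor of the proximal tubule, 2636 and 20452 (ratio 0.0721). Its proximal tubule-like UMIs were 2588 and 20117, a ratio of 0.221. Mmp9, the protease that Lcn2 binds, had 602 and 71 UMIs (ratio 4.74, 3.70 to 6.15) and its inhibitor Timp1 14348 and 31 (ratio 259, 182 to 381). Neutrophil-like cells, of which Mmp9 is a marker, numbered 181 and 12. Fibroblast-like cells, where Timp1 was a leading gene, numbered 282 and 28. The part of cell numbers in these ratios was not tested. Within the proximal tubule-like class Timp1 had 183 and 0 UMIs, at least 105-fold higher. The catenins that tie Cdh6 to the cytoskeleton were near 1: Ctnnb1 at 0.827, Ctnna1 at 0.880 and Ctnnd1 at 0.958 (0.890 to 1.03). Within the proximal tubule-like class they were 1.82, 2.60 and 2.01. Lrp8, a receptor of clusterin, had 84 and 8 UMIs (ratio 5.87), Sox8, a paralogue of Sox9, 25 and 10 (ratio 1.40, 0.649 to 3.26) and Itgb7 239 and 98 (ratio 1.36).

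Genes whose levels ran most like each member over the cell clusters were ranked by Pearson r of log2(CPM + 10), over 28 clusters with both libraries pooled and 7730 genes. For Havcr1 they were Serpina10 (r = 0.938), Fga (0.901) and Fgg (0.890). For Sox9 they were Dcdc2a (0.919), Aoc1 (0.888) and Ankrd1 (0.866), and for Cdh6 they were Misp (0.861), Chmp4c (0.833) and Rasl11b (0.831). For Lcn2 they were Krt18 (0.951) and Krt19 (0.842), and for Clu they were Cldn7 (0.909) and Hebp2 (0.881). Wfdc2 shared Cldn7 (0.928) with Clu, beside Dsg2 (0.938) and Kcnk1 (0.927). For Prom1 they were Eps8l2 (0.916), Tacc2 (0.850) and Aif1l (0.843), and Vcam1 had lower values, led by Cmtm3 (0.837), Lgals3bp (0.812) and Ly96 (0.798). Between members, Lcn2 ran with Clu (0.815) and Wfdc2 (0.805), Sox9 with Clu (0.697), Wfdc2 (0.694), Cdh6 (0.667), Prom1 (0.641), Havcr1 (0.628) and Lcn2 (0.625), and Havcr1 little with Lcn2 (0.121). The clusters share 2 libraries, so these values are a description, and the ranking moved with its settings: 11 of the 24 genes were the same with log2(CPM + 1) and 6 with I-PpoI clusters alone.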

How the data were processed

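Single-cell RNA was measured in 2 libraries of kidney cortex, 1 per group. The authors deposited raw UMI counts per gene and cell barcode, with no normalization, for the mouse mm10 build (GRCm38). Per the labels' protocols they were made with Cell Ranger 3.1 and processed further with Seurat 3; per the file headers the counts come from Cell Ranger 6.0.2, and the reason for the difference is not given in the sources used here. The deposited matrices hold 5268 I-PpoI and 5536 wild-type barcodes, none under 500 UMIs.

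From these counts, barcodes with under 200 genes (1144 and 1732) or over 50% mitochondrial UMIs (1058 and 2054) were left out. Scrublet marked 30 and 5 barcodes, too few to rely on, so barcodes with scores above the limit of the top 4% were left out in each library instead; those tied at the limit were kept, which left out 142 (3.47%) and 123 (3.82%). Cells of both libraries were clustered with scanpy 1.11.5 (2000 variable genes, of which 1972 were used, without the members and 3 injury lists, 30 components, 15 neighbours, Leiden resolution 1), giving 29 clusters. Each was named from marker lists of 21 classes where at least 3 markers led it; clusters 14 and 20 stayed unnamed. The rebuilt names can differ from the authors' cell types. Exact Poisson, binomial and Clopper-Pearson intervals were taken with scipy 1.17.1, and the scripts were tested on simulated data.

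Named genes are the 8 members, the 3 genes most like each in pattern, the 3 list genes each way whose interval bound lay farthest from 1 (at least 20 UMIs) and the partners with at least 20 UMIs. Some genes that this rule names are not reported here. A gene was counted as measured with at least 10 UMIs in the libraries together, 0.5 UMI being added to each sum, and a fold of 2 was the threshold. Members and lists were chosen with earlier results of these data known. Gene positions are from GENCODE M21 and promoter windows from RefSeq, GRCm38.p6. Over all barcodes 6 were shared between the libraries. Alternatives changed the filters, clustering, depth and weighting.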

Additional observations from a re-analysis of the deposited data

Results flagged for a closer look

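Barcodes left out by the filters also held UMIs of the members, and most members stood higher in the I-PpoI library. The sets overlap: 1025 I-PpoI and 1467 wild-type barcodes failed both the gene limit and the mitochondrial limit. Among barcodes over the mitochondrial limit (1058 I-PpoI and 2054 wild-type), Lcn2 stood at 92.4 CPM in I-PpoI and 0.149 in wild-type, and Clu at 64.7 and 12.5 CPM. Vcam1 stood at 11.8 and 0.299 CPM, Havcr1 at 10.1 and 0.149, Cdh6 at 8.4 and 1.34, and Sox9 at 4.2 and 0.299. Wfdc2, at 57.1 and 58.0 CPM, and Prom1, at 7.56 and 12.3, were not higher in I-PpoI there. Among barcodes under the gene limit (1144 and 1732), Lcn2 stood at 50.8 and 0.267 CPM, Wfdc2 at 37.6 and 20.0, Clu at 32.7 and 3.73, and Vcam1 at 13.2 and 0.267. Havcr1 stood at 8.35 CPM in I-PpoI and 0 in wild-type barcodes, and Cdh6 at 6.26 and 0.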

How the results depend on the processing

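With 1 library per group and rebuilt cell classes, all values rest on a single pair of libraries that differ in depth and mitochondrial share, and low UMI sums in wild-type cells (0 for Havcr1) limit the ratios. No paired analysis was possible because each group has 1 library. In 63 of the comparisons' recomputed values the value moved by more than its counting interval or a count by over 1.5 times, and 100 did not; among single genes 79 moved, 187 did not and 5 changed direction. The cause of the moves was not tested. The log2 ratios over all kept cells stayed above 0 under every alternative run.

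With a mitochondrial limit of 25% the log2 ratios were 7.66 for Havcr1 (as its bound), 4.02 for Lcn2, 1.92 for Vcam1, 2.65 for Clu, 0.69 for Prom1 and 1.18 for Wfdc2. With all deposited barcodes they were 4.85 for Lcn2, 2.87 for Vcam1, 2.99 for Clu, 1.89 for Cdh6, 0.69 for Prom1 and 1.25 for Wfdc2. Without mitochondrially encoded UMIs they were 4.33 for Lcn2, 2.18 for Vcam1, 2.57 for Clu, 1.16 for Cdh6, 0.25 for Prom1 and 0.81 for Wfdc2, which ends the 2-fold call of Wfdc2. With each cell weighted equally they were 4.17 for Lcn2, 1.76 for Vcam1, 2.51 for Clu, 1.04 for Cdh6, 0.27 for Prom1 and 0.80 for Wfdc2, and Havcr1 gave no ratio. With no doublets left out Clu was at 2.64 and Wfdc2 at 0.94. With I-PpoI levels set to the wild-type class composition, chosen after seeing the data, they were 4.96 for Lcn2, 2.73 for Vcam1, 7.30 for Sox9, 3.06 for Clu, 2.64 for Cdh6, 1.44 for Prom1 and 1.79 for Wfdc2.

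Leaving out cluster 4, also chosen after seeing the data, gave 5 members at least 2-fold higher in proximal tubule-like cells, and 7 injury, 3 dedifferentiation and 4 unresolved repair genes higher and 5 mature genes lower, with fewer genes measured. With the class of each cell set by its marker score, the members higher were 4 in connecting tubule and principal-like, 8 in distal convoluted tubule-like, 2 in endothelial-like, 1 in fibroblast-like and 2 in mural cells, and in proximal tubule-like cells 4 dedifferentiation genes were higher and 8 mature genes lower. The distal convoluted tubule-like count was 5 with a mitochondrial limit of 25%, and with at least 500 genes per cell the counts were 5 in macrophage-like and 0 in fibroblast-like cells. Directions that changed were Cdh6 in connecting tubule and principal-like cells (log2 ratio 2.73 as reported, -0.64 at resolution 2, -0.65 with all variable genes and -0.61 by marker score, each with an interval that included 0), Clu in parietal epithelial-like cells by marker score (3.30 as reported, -0.21) and Wfdc2 in macrophage-like cells with at least 500 genes (-1.73 as reported, 1.60). The parietal epithelial-like class held 0 cells at resolutions of 0.5 and 2, with all variable genes, with a mitochondrial limit of 25% and with at least 500 genes, so these gave no value.

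Shares of I-PpoI cells moved with the thinned depth. At 500 and 2000 UMIs they were 6.83% and 21.1% for Havcr1 and 9.34% and 35.5% for Vcam1 in proximal tubule-like cells, 64.8% and 96.8% for Lcn2 and 7.03% and 33.3% for Prom1 in thick ascending limb-like cells, and 69.3% and 89.1% for Clu in connecting tubule and principal-like cells. At 500 UMIs Sox9 was at 4.78% in proximal tubule-like and Cdh6 at 12.0% in parietal epithelial-like cells, and at 2000 Wfdc2 was at 100% in thick ascending limb-like cells. Of the 24 genes most like a member, 11 were shared with log2(CPM + 1) and 6 with I-PpoI clusters only.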
